A study of Mus musculus with 15 samples.

Results

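Chromosome 4 (Chr4) was examined in liver tumours and unaffected livers of mice in which the spindle checkpoint gene Mad2l1 is deleted in hepatocytes. The members were all probes of the array that the files place on chr4, with control spots left out. There were 2508 such probes of 42404 distinct probes in all, and of 40726 on the 19 autosomes. They ran from position 3377972 to position 155559340 with a median spacing of 21.2 kb. Of these probes, 2172 carried a gene name of the array design (1228 names) and 336 were named by position only.

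Genomic DNA was measured by array comparative genomic hybridisation (aCGH), a competition of dye-labelled tissue DNA with reference DNA for short probes on a slide. From 3 mice came 8 tissues, namely 5 hepatocellular carcinomas (HCC) and 3 unaffected livers. All mice carried floxed Mad2 alleles on both chromosomes, labelled Mad2(f/f), and the AlbuminCre transgene. This transgene is active in liver parenchyma and leaves other cells of the organ unrecombined. The sources give mice and reference a mixed strain background. Mouse 3151, which gave HCC 1, HCC 2 and unaffected liver 1, was a female of 16.4 months with the genotype p53(f/+). Mouse 3760, a male of 13.8 months with p53(f/f), gave HCC 3 and unaffected liver 2. Mouse 4033, a male of 13.9 months with p53(f/f), gave HCC 4, HCC 5 and unaffected liver 3. The reference was liver DNA of the opposite sex, male for mouse 3151 and female for the other mice, and wild type per the methods of the study. Each DNA was hybridised in both dye orientations, called forward and swap here, except HCC 3, which had the forward array only. Both arrays of a tissue were averaged to 1 replicate, so the 15 arrays gave 8 values. Unaffected livers carried the deletion alleles too, so the comparison was between tumour and liver of the same genotypes and not with normal mice.

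Mouse Chr4 is acrocentric and carries several genes that limit growth. Cdkn2a encodes an inhibitor of Cdk4 and Cdk6 and, from an alternative reading frame, a protein that stabilises p53. Chr4 also holds Trp73 of the p53 family, the chromatin remodellers Arid1a and Chd5, and the growth promoters Jun, Mycl, Jak1 and Mtor. Gain or loss of a whole chromosome follows from missegregation in mitosis and shifts all probes of the chromosome by a similar amount, while a copy variant shifts a short run of neighbouring probes.

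The probes on which the short regions and single genes below turn are shown here 5′ to 3′ with their positions, taken from the scanner files, whose genome build is not named there. No base is set in capitals because the data single out no part of a probe. None of these 10 probes shared 25 bases with another probe of the array.
9530098N22Rik (now Skint4), chr4:111809439-111809498: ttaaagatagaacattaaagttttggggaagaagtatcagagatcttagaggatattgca
A030013N09Rik (now Skint9), chr4:112102035-112102094: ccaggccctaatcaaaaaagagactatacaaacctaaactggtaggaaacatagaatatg
Alad, chr4:62179054-62179113: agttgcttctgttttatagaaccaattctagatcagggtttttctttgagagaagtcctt
Kif1b, the displaced probe, chr4:148586723-148586782: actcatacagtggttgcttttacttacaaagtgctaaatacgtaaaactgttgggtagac
Kif1b, a neighbour, chr4:148623912-148623971: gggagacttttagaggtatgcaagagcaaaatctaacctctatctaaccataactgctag
Gpatch3, chr4:133135359-133135418: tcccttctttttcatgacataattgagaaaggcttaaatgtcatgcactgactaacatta
Tekt2, chr4:125999830-125999880: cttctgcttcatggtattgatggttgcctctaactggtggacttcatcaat
AK144910, chr4:88727113-88727172: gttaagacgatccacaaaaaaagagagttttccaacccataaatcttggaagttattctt
Trp73, chr4:153476154-153476213: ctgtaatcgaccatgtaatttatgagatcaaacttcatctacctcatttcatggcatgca
Cdkn2a, chr4:88934358-88934417: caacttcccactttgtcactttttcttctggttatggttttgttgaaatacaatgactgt

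Signals were well above background for most Chr4 spots. Between 0.0784% and 3.25% of the Chr4 spots of an array did not rise well above background, no Chr4 spot was saturated, and the noise between neighbouring probes ranged from 0.083 to 0.20 log2 units. HCC 3, with a single array, had the highest noise.

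Chr4 was below the reference in all 8 tissues. With arrays centred on the median it was lowest in the tumours of mouse 4033, while with arrays centred on the mode HCC 5 of that mouse was the highest of the 8 tissues, at -0.02. The Chr4 level is the mean log2 ratio of tissue over reference over its probes, with the median of the autosomal probes of each array set to 0. It is therefore relative to the other chromosomes of the same tissue, and total ploidy is not measured. The level was -0.30, -0.21, -0.14, -0.45 and -0.34 in HCC 1 to 5, and -0.18, -0.10 and -0.03 in unaffected livers 1 to 3. HCC 1, 2, 4 and 5 lay below all 3 livers, while HCC 3 lay above unaffected liver 1, so the groups overlapped. In bulk DNA, a loss in fewer cells and a smaller loss per cell cannot be told apart.

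**Figure D1:**
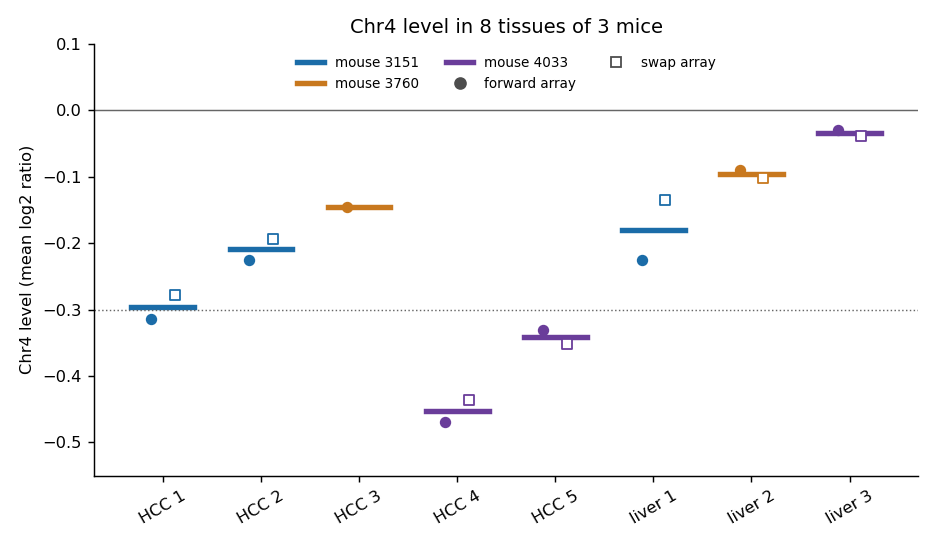
Chr4 level of each tissue in log2 units of tissue over reference (vertical axis), with a bar for the mean of its arrays, a filled circle for the forward array, an open square for the swap array and the colour giving the mouse. All bars lie below 0, HCC 4 and HCC 5 lie below the dotted line at -0.3, and the livers lie between -0.18 and -0.03.

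Dye orientation moved the level without changing its sign. The swap array differed from the forward array by between -0.02 and 0.09 log2 units. The largest difference was in unaffected liver 1, at -0.23 forward and -0.13 swap. It was larger in size than the differences of HCC 2 (-0.03) and HCC 3 (-0.05) from the livers of their mice. HCC 4 was at -0.47 and -0.44, and HCC 5 at -0.33 and -0.35. Both orientations were thus on the same side of 0 in each of the 7 tissues that had both.

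The X chromosome gave a scale for these values, since each tissue was set against DNA of the other sex. The size of the X log2 ratio averaged 0.89 over the 3 unaffected livers, which corresponds to the difference between the female and the male X dose as these arrays measure it. On the log2 scale, the Chr4 level of HCC 4 was 50.9% of that value, that of HCC 5 38.4%, that of HCC 1 33.3%, that of HCC 2 23.6% and that of HCC 3 16.3%. The livers reached 20.2%, 10.8% and 3.77%.

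The event threshold of the study, a level of 0.3 or more in size, was passed by Chr4 in 2 HCC, HCC 4 and HCC 5, and in no unaffected liver. HCC 1 lay just short of it at -0.296, and HCC 5, the nearest on the other side, was at -0.341. Where the arrays were centred on the mode of the probes instead of the median, the level of HCC 5 became -0.02, that of HCC 2 became -0.08 and that of HCC 1 became -0.41. The mode lay -0.32 log2 units from the median in HCC 5, -0.13 in HCC 2 and 0.115 in HCC 1, and between -0.03 and 0.04 in the other tissues. The count past the threshold stayed at 2 under this centring, but the tumours were then HCC 1 and HCC 4. The level was below 0 in all 8 tissues under each of the 8 alternative settings computed for it.

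To ask whether Chr4 differed between tumour and liver, the levels of all 19 autosomes were compared with limma. HCC had a mean Chr4 level of -0.29 ± 0.12 (SD, n = 5) and the unaffected livers one of -0.10 ± 0.07 (SD, n = 3). The difference was -0.19 (SE 0.11) and was not called, with an adjusted p of 0.361 by limma over the 19 autosomes. By p, Chr4 ranked 5 of the 19, and limma called 1 of them. An exact permutation test over 56 splits of the tissues gave p = 0.0536, two-sided, where the smallest p these splits allow is 0.0179. The splits treated tissues of the same mouse as independent replicates, so this p takes no account of the mouse. Within scan day 1 the difference was -0.18, from 2 HCC and 2 livers. Within scan day 2 it was -0.14, from 3 HCC and 1 liver. With the mouse as a block the difference was -0.17, with an adjusted p of 0.544 by limma.

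With arrays centred on the median, each tumour lay below the liver of its own mouse on Chr4, as it did on Chr7. The Chr4 difference was -0.12, -0.03, -0.05, -0.42 and -0.31 in HCC 1 to 5, with a mean of -0.18 ± 0.17 (SD, n = 5 tumours of 3 mice). The difference exceeded 0.3 in size in both tumours of mouse 4033 and was 0.12 or less in the other tumours. HCC 4 was read on scan day 2, and the liver of its mouse on scan day 1. The slide and the extraction protocol version differed too, and their part in this difference was not tested. With arrays centred on the mode it turned to 0.08 in HCC 2 and 0.01 in HCC 5, and it was -0.25 in HCC 1, -0.02 in HCC 3 and -0.46 in HCC 4. With forward arrays only it was 0.00025 in HCC 2. With median centring, Chr4 was the lowest of the 19 autosomes on this measure in HCC 4, and in HCC 1, 2, 3 and 5 it ranked 6, 9, 7 and 7 from the lowest.

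In the livers, Chr4 stood at the bottom of the autosomes. It was the lowest of the 19 autosomes in all 3 unaffected livers, a count added after the data were seen. It remained so under each of the 8 alternatives computed for this count. Those that centred on the mode or on all probes move all autosomes of a tissue alike, so they could not change the rank. The next lowest autosome was Chr19 in unaffected liver 1, at -0.13, and Chr13 in the livers of mice 3760 and 4033, at -0.06 and -0.01. Regressing probe GC content out of each array left the Chr4 levels of the livers at -0.17, -0.10 and -0.04. In the tumours Chr4 was the lowest autosome in HCC 4 only, and ranked 5, 4, 5 and 5 from the lowest in HCC 1, 2, 3 and 5.

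**Figure D2:**
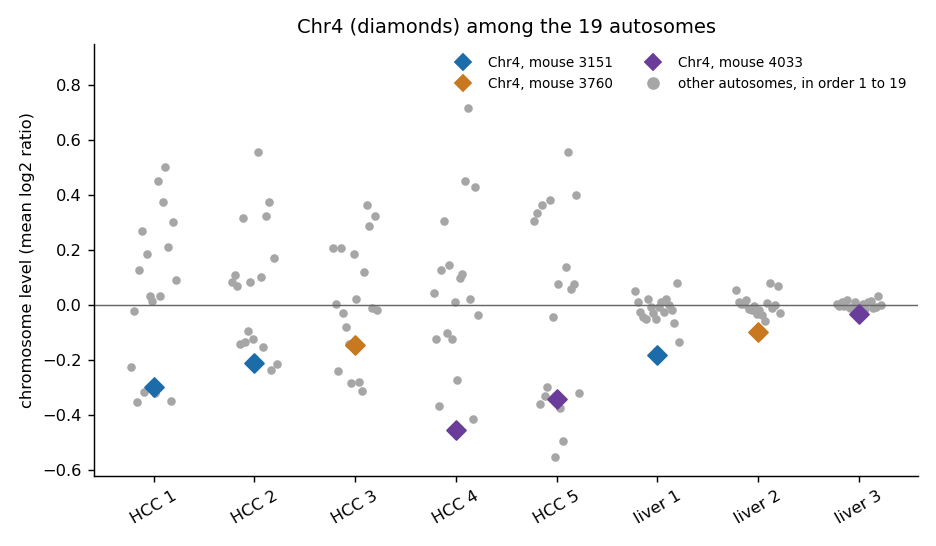
Mean log2 ratio of each autosome in each tissue (vertical axis), with Chr4 as a diamond coloured by mouse and the other 18 autosomes as grey points in order from left to right. The diamond is the lowest point in all 3 livers and in HCC 4, and several autosomes lie below it in HCC 1, 2, 3 and 5.

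Most single Chr4 probes lay below 0 in each tissue with arrays centred on the median. The share of Chr4 probes with a log2 ratio below 0 was 93.1%, 87.2%, 76.6%, 97.2% and 99.1% in HCC 1 to 5. The livers had 83.1%, 86.0% and 65.4%. The middle 50% of probes ran from -0.58 to -0.32 in HCC 4 and from -0.40 to -0.26 in HCC 5. In unaffected liver 3 they ran from -0.08 to 0.02.

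With median centring, the shift covered the length of the chromosome in each tissue. In windows of 10 Mb with at least 60 probes, which were 15 of 16, the mean log2 ratio ran from -0.50 to -0.41 in HCC 4, from -0.37 to -0.30 in HCC 5 and from -0.34 to -0.26 in HCC 1. In HCC 2 it ran from -0.25 to -0.15, and in HCC 3 from -0.22 to -0.10. The livers spanned -0.23 to -0.14, -0.12 to -0.05 and -0.06 to -0.01. All 16 windows were below 0 in all 8 tissues under this centring. When arrays were centred on the mode the level of HCC 5 was -0.02, and the windows were not counted again. The window from 70 to 80 Mb held only 32 probes and was the lowest in HCC 1, HCC 4, HCC 5 and unaffected livers 1 and 3.

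**Figure D3:**
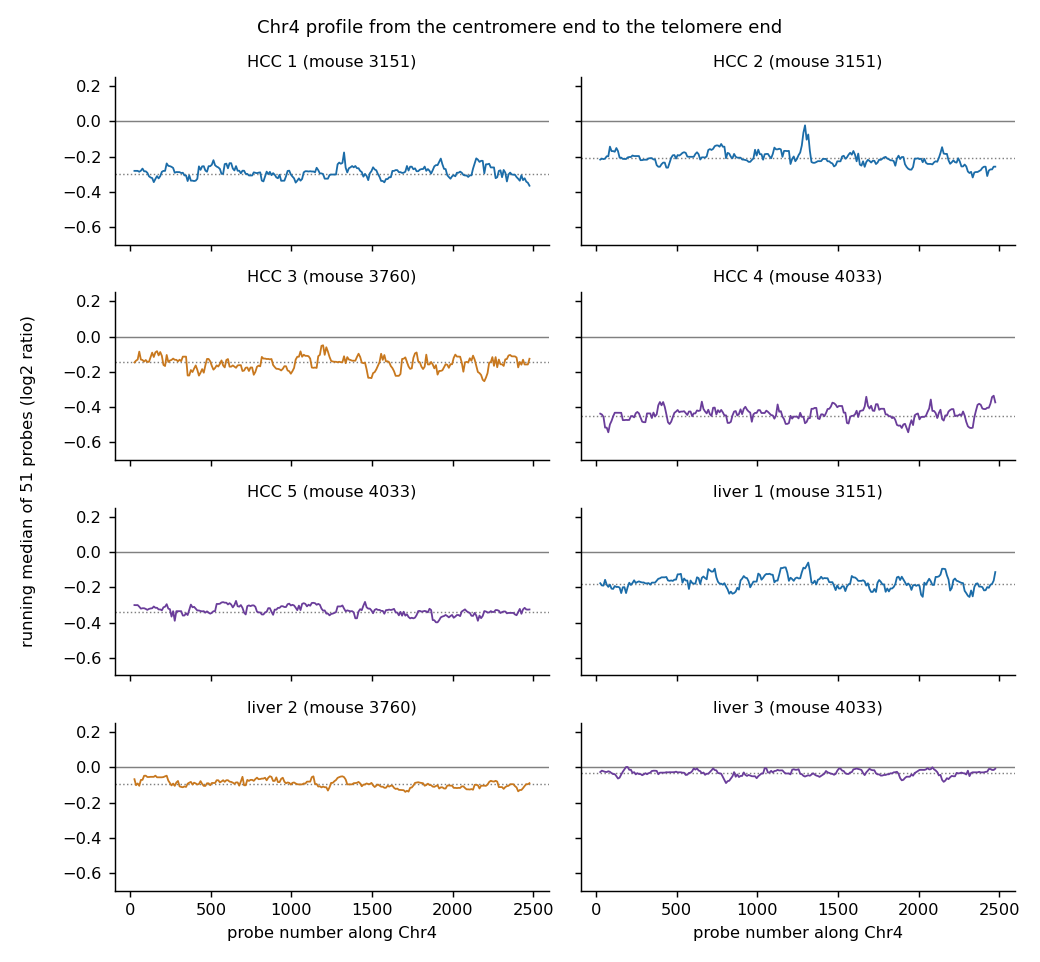
Running median of 51 probes in log2 units (vertical axis) against probe number along Chr4, from the centromere end on the left, in a panel for each tissue coloured by mouse, with the Chr4 level of the tissue as a dotted line. The line runs on both sides of the dotted line along the whole chromosome, over the widest range in HCC 2, from -0.32 to -0.02, and the level falls from liver 3 at -0.03 to HCC 4 at -0.45.

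To compare the ends of the chromosome, the mean of the last 836 probes was set against that of the first 836. The last minus the first was -0.01, -0.04, 0.01, -0.01 and -0.02 in HCC 1 to 5. In the livers it was -0.01, -0.03 and 0.00. HCC averaged -0.013 ± 0.016 (SD, n = 5) and livers -0.013 ± 0.017 (SD, n = 3). Between HCC and livers this value did not differ detectably, with p = 0.911 by the exact permutation test over 56 splits, two-sided. That test too took no account of the mouse. Whether the ends differ from each other was not tested.

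Segmentation found breakpoints against the reference and none against the liver. Against the liver of the same mouse, each of the 5 HCC had a single Chr4 segment, with no breakpoint. Against the reference, HCC 3 and HCC 4 had a single segment too, and the other tissues had between 3 and 7 segments. In those 6 tissues the longest segment held between 42.1% and 74.7% of the Chr4 probes. There were 25 breakpoints over the 8 tissues, some of which bounded the focal regions described below. The penalty per segment rose with the probe noise of a tissue, so segment counts are not comparable between tissues. Noise was highest in HCC 3 and HCC 4 (0.20 and 0.19), with 1 segment each. It was lowest in unaffected livers 2 and 3 (0.09 and 0.08), with 7 segments each. A contrast of HCC with liver holds the noise of both, so finding no breakpoint there cannot exclude one.

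No growth inhibitor of Chr4 was called between HCC and liver, and the 18 measured members ranged from -1.22 to 0.35 relative to the Chr4 median of their tissue. The Cdkn2a value, a mean of 2 probes at 88934358 to 88938124, was -0.33, -0.23, -0.22, -0.47 and -0.43 in HCC 1 to 5. In the livers it was -0.19, -0.10 and -0.03. All 5 HCC lay below all 3 livers with arrays centred on the median, as they did at 258 of 1228 Chr4 genes (21%). Relative to the Chr4 median of the same tissue, Cdkn2a lay between -0.10 and 0.01 in the 8 tissues, and the HCC minus liver difference was -0.05 (SE 0.06), with an adjusted p of 0.999 by limma over 19973 autosomal genes. Cdkn2b had no probe named for it.

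Cdkn2c, an inhibitor of Cdk4 and Cdk6, was at -0.17, -0.24, -0.20, -0.40 and -0.39 in HCC 1 to 5. It was at -0.10, -0.13 and -0.07 in the livers, so the groups did not overlap, as at 21% of Chr4 genes with median centring. Chd5, a mean of 6 probes, was at -0.34, -0.20, -0.13, -0.47 and -0.35 in HCC and at -0.24, -0.17 and -0.05 in the livers, with overlap. Arid1a, a mean of 3 probes, was at -0.03 and 0.00 in HCC 1 and HCC 2, above its value of -0.24 in the liver of the same mouse. It was at -0.20, -0.55 and -0.46 in HCC 3 to 5, and at -0.12 and -0.14 in unaffected livers 2 and 3.

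Among the growth promoters, Mycl, a Myc family factor listed as Mycl1, was at -0.65, -0.16, -0.42, -0.40 and -0.29 in HCC 1 to 5. Its 1 probe was at 0.12, -0.07 and -0.03 in the livers, so all 5 HCC were lower, as at 21% of Chr4 genes. Its HCC minus liver difference on the reference scale was -0.39, with an unadjusted p of 0.0123 and an adjusted p of 0.389 by limma. Mtor, the growth kinase listed as Frap1, was at -0.27, -0.20, -0.37, -0.29 and -0.23 in HCC and at -0.14, -0.05 and -0.02 in the livers. Jun, an AP-1 subunit, ranged from -0.40 to -0.06 in HCC and from -0.10 to -0.01 in liver. Jak1, a cytokine receptor kinase, was at 0.09 in HCC 3 and between -0.54 and -0.14 in the other HCC.

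No gene of mitosis was called between HCC and liver either. Mad2l2, a paralogue of the deleted Mad2l1 that serves in translesion DNA synthesis, was at -0.55, -0.23, -0.17, -0.35 and -0.36 in HCC 1 to 5 and at -0.03, -0.11 and -0.02 in the livers. All 5 HCC were below all 3 livers at its 1 probe, as at 21% of Chr4 genes, with an adjusted p of 0.604 by limma. Cdc20, the activator of the anaphase-promoting complex that Mad2l1 restrains, was at -1.09 on the single array of HCC 3 and at -0.76 in HCC 1, and between -0.37 and -0.30 in the other HCC. The livers were at -0.32, -0.26 and -0.03 at this 1 probe. Kif2c, a microtubule depolymerase, ranged from -0.61 to -0.11 in HCC and from -0.49 to -0.02 in liver.

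Liver genes of Chr4 were not called between HCC and liver. Cyp7a1, the rate-limiting enzyme of bile acid synthesis, ranged from -0.50 in HCC 4 to -0.10 in HCC 3, and from -0.13 to 0.06 in the livers. Baat, which conjugates bile acids, was at -0.28, -0.23, -0.22, -0.43 and -0.31 in HCC 1 to 5 and at -0.08, -0.15 and -0.07 in the livers. Nr0b2, a nuclear receptor that represses bile acid synthesis, ranged from -0.51 to -0.23 in HCC and from -0.29 to -0.01 in liver.

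**Figure D4:**
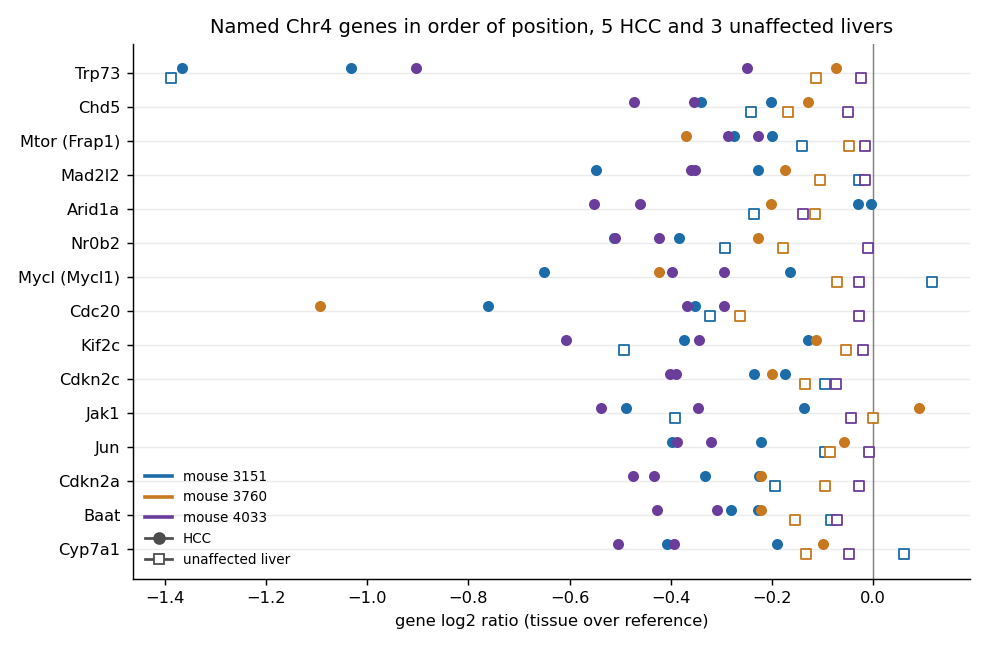
Log2 ratio of tissue over reference (horizontal axis) of 15 named Chr4 genes, ordered by position from the bottom, with filled circles for 5 HCC and open squares for 3 unaffected livers, coloured by mouse. Trp73 lies between -1.39 and -0.90 in the tissues of mouse 3151 and in HCC 4, Cdc20 lies at -1.09 in HCC 3, and the other 13 genes lie between -0.65 and 0.12.

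Over the 4 gene lists, limma called no member on the reference scale or relative to the Chr4 median, as it called 0% of autosomal genes on either scale. At an unadjusted p under 0.05 on the reference scale, 98 of 1228 Chr4 genes were lower in HCC and 0 higher. Of 19973 autosomal genes, 473 (2.37%) were lower and 1149 higher. The lists held 1 of 18, 2 of 22, 2 of 21 and 5 of 31 genes lower in HCC, in the order given next, beside 98 of 1228 over Chr4. Of 1228 Chr4 genes, 258 (21.0%) had all 5 HCC below all 3 livers, against 3.72% of autosomal genes, and none had all 5 above. Among tumour suppressors and growth inhibitors this held for 4 of 18 measured genes, Cdkn2a, Cdkn2c, Mtap and Sdhb. Among proto-oncogenes and growth promoters it held for 6 of 22, among genes of mitosis and DNA replication or repair for 5 of 21, and among liver metabolism and secreted proteins for 11 of 31. The median HCC minus liver difference on the reference scale was -0.19, -0.20, -0.18 and -0.19 in these lists, against -0.19 over all Chr4 genes and -0.01 over all autosomal genes. Relative to the Chr4 median, no list median was over 0.02 in size. These counts share the level of the whole chromosome, taken with arrays centred on the median, and are not independent of it.

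Gene families had median differences between -0.25 and -0.14. The 16 olfactory receptors had a median difference of -0.23 on the reference scale, the 4 type I interferons of -0.25, the 9 zinc finger genes named Zfp of -0.22, the 4 Cyp2j genes of -0.20 and the 4 Cyp4a genes of -0.14. None of their members passed the test.

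Across all probes, limma called 0 of 2508 Chr4 probes between HCC and liver, and 0% of all 40726 autosomal probes. At an unadjusted p under 0.05, 203 Chr4 probes (8.09%) were lower in HCC and 0 were higher. Of autosomal probes, 2.06% were lower and 7.4% passed in either direction. HCC means lay below liver means at 2389 Chr4 probes (95.3%). The probe with the smallest p, at chr4:63492496-63492555 and without a gene name, was at -0.43, -0.50, -0.45, -0.56 and -0.55 in HCC 1 to 5 and at -0.10, 0.16 and 0.18 in the livers. Its difference was -0.58 (SE 0.13), with an adjusted p of 0.309 by limma. The next 4 were a probe of Fbxl4, an F-box protein gene (-0.49), the probe at chr4:115064222-115064277 (-0.67), a probe of BC058984 (-0.42) and a probe of Espn, an actin-bundling protein gene (-0.55), with adjusted p between 0.335 and 0.410 by limma.

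Relative to the Chr4 median, limma called 0 of 1228 Chr4 genes between HCC and liver. At an unadjusted p under 0.05 there were 13 (1.06%), against 1.55% of autosomal genes, so the Chr4 share was no higher than the background. The 5 genes with the smallest p that were lower in HCC were Atpaf1 (-0.24), an assembly factor of the mitochondrial ATP synthase, and BC058984 (-0.23), Klhdc7a (-0.25), Zfp593 (-0.18) and Slc7a13 (-0.17), an amino acid transporter. The 5 that were higher were AK220330 (0.20), Lao1 (0.22), an amino acid oxidase, Dph2 (0.27), which acts in diphthamide synthesis, Lypla2 (0.20), a lysophospholipase, and Ssbp3 (0.16), which binds single-stranded DNA. Each had an adjusted p of 0.999 by limma.

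Focal regions were found against the reference, and none was found in a tumour against the liver of its own mouse. A focal region was a segment of at least 5 probes, holding under 50% of the chromosome's probes, whose mean lay at least 0.3 log2 units from the Chr4 median of its tissue. There were 9 such regions over the 8 tissues, 4 of them in HCC, at 6 loci. The values that follow are relative to the Chr4 median of the same tissue. Mouse 3151 differed from the others in sex, age, p53 genotype and the sex of its reference, so these cannot be told apart from the mouse itself. Its arrays were read on scan day 2 with an extraction protocol version of that day, which HCC 4 of mouse 4033 shared and no other tissue did. The sources do not say whether tissues shared 1 reference DNA, and they give mice and reference a mixed strain background, whose part in these regions was not tested.

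The highest locus lay in the Skint family, butyrophilin-like genes known for their role in the selection of skin gamma delta T cells. It spanned chr4:111656718-112299823 with 11 probes, and the gene table for GRCm38.p6 lists its array names 9530098N22Rik, A430090E18Rik and A030013N09Rik as older names of Skint4, Skint3 and Skint9. The mean was 0.69 in HCC 1, 0.87 in HCC 2 and 0.80 in unaffected liver 1, the 3 tissues of mouse 3151. In the other 5 tissues it lay between -0.11 and 0.07, with HCC 4, of the same scan day as mouse 3151, at -0.11. Both dye orientations showed it, at 0.51 and 0.86 in HCC 1, 0.89 and 0.85 in HCC 2 and 0.70 and 0.88 in unaffected liver 1.

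Within this locus the probes did not all shift alike. The probe of 9530098N22Rik was at 1.14, 1.33 and 1.10 in HCC 1, HCC 2 and unaffected liver 1, and the first probe, of EU099306, at 0.36, 0.62 and 0.06. Beyond the locus, A030001H23Rik, an older name of Skint10, was at 0.25, 0.38 and 0.22 in these tissues, and A630098G03Rik, of Skint11, at 0.18, -0.01 and 0.12. C130057D23Rik, of Skint7, just before the locus, was at -0.18, 0.31 and 0.09 in them and highest in HCC 3, at 0.50. Of 6 Skint genes found on the array through older names, a search made after the values were seen, 3 lay inside the segments.

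Another locus held Alad, which encodes a heme synthesis enzyme, and its neighbours Hdhd3, Bspry and AK044938 at chr4:62144188-62182553. It was called as a region in unaffected liver 2 only, but the tissues split by mouse. The mean of its 5 probes was 0.26, 0.33 and 0.33 in HCC 1, HCC 2 and unaffected liver 1, and between -0.39 and -0.29 in the 5 tissues of mice 3760 and 4033, with HCC 4 at -0.34. At Alad itself the values were 0.28, 0.37 and 0.39 in mouse 3151. They were -0.40 and -0.46 in mouse 3760, and -0.42, -0.51 and -0.40 in mouse 4033. The probe of Bspry at the edge of the locus did not follow, with values between -0.09 and 0.14 in the 8 tissues.

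The Kif1b locus, named for a kinesin gene, rested on a single probe. At chr4:148586723-148586782 the value was -2.51, -2.59 and -2.52 in HCC 1, HCC 2 and unaffected liver 1, at -0.40 in HCC 3, -0.82 in HCC 4, and between -0.05 and 0.02 in the other tissues. Its neighbour in the same gene at 148623912 was between -0.13 and 0.21 in the 8 tissues. The value was called as a region in HCC 2 only, at -0.67 over 5 probes. HCC 4 thus differed here from HCC 5 and unaffected liver 3 of its own mouse, and it shared its scan day with mouse 3151, whose part in this value was not tested.

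The last 2 loci rested on few probes as well. At the locus named for Elavl2, a neuronal RNA-binding protein gene, the 2 Elavl2 probes ranged from -0.61 to 0.36 over the 8 tissues. The probe at chr4:91517679-91517738 was at -1.08, -0.95 and -1.55 in mouse 3151, at 0.81 and 1.87 in mouse 3760 and at 0.71, 0.93 and 0.70 in mouse 4033. At the locus of Ddi2, a protease gene, 1 probe at -1.61 in unaffected liver 2 set the region, and the locus mean was -0.09 on the forward and -0.67 on the swap array of that tissue. HCC 3 of the same mouse had a locus mean of -0.09.

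**Figure D5:**
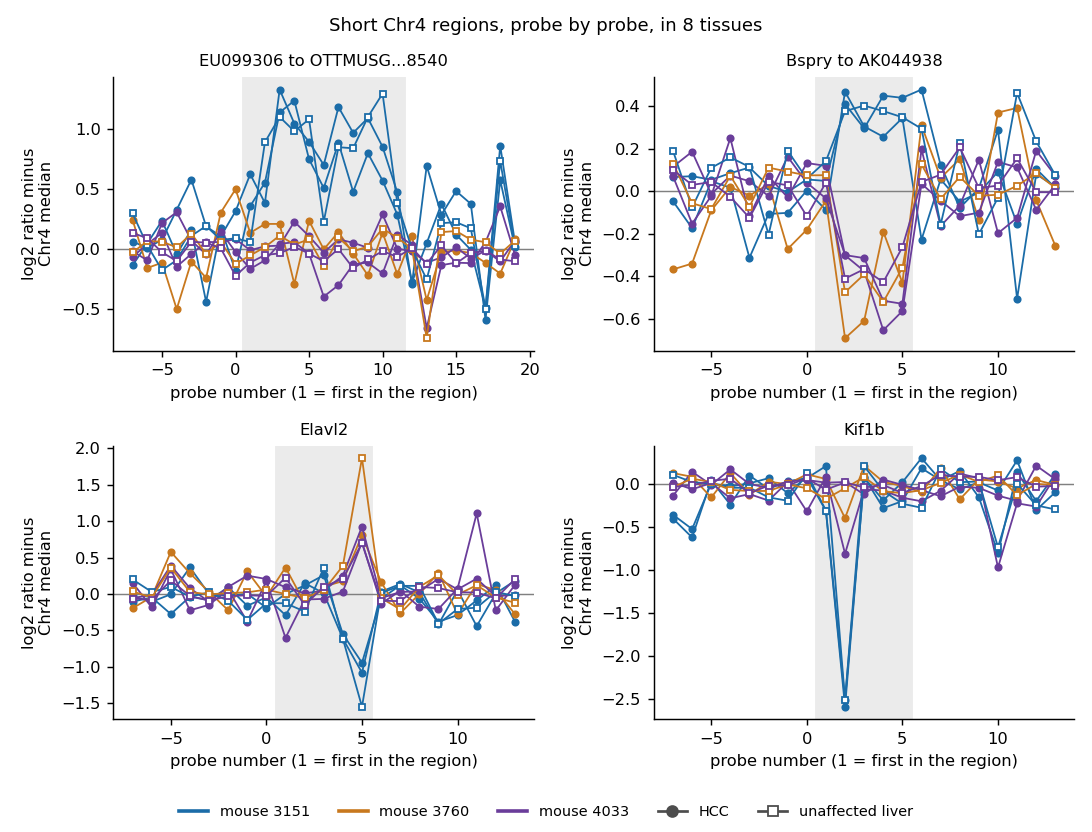
Log2 ratio minus the Chr4 median of the tissue (vertical axis) for each probe of 4 loci and of 8 probes on either side (horizontal axis, probe number, with the locus shaded), with lines coloured by mouse, circles for HCC and open squares for unaffected livers. The 3 tissues of mouse 3151 stand apart at the locus of EU099306, with means of 0.69 to 0.87, and at 1 probe of Kif1b, with values from -2.59 to -2.51, and they lie below 0 at the probe of the Elavl2 locus where the other 5 tissues lie between 0.70 and 1.87.

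To put this on a common footing, genes were compared between the 3 mice with limma's moderated F test, relative to the chromosome median, a comparison chosen after the data were seen. It called 13 of 1228 Chr4 genes (1.06%), against 1.1% of autosomal genes, so Chr4 held no larger share than the rest. The called genes included Gpatch3, 9530098N22Rik, Tekt2, Alad, Hdhd3, AK044938, A030013N09Rik, AK144910, A430090E18Rik, Kif1b, Aadacl3 and Trp73. Of the 13, 8 lay in the 6 loci, and 6 were called in all 13 settings, among them Alad, Gpatch3, Hdhd3, Tekt2 and 9530098N22Rik. The tissues of a mouse are not separate animals. These p-values set the differences between mice against the spread between tissues of 1 mouse, so they do not extend to other mice.

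Gpatch3, a G-patch protein gene, split the mice into 3 levels at its 1 probe. Relative to the Chr4 median it was at 0.71, 0.76 and 0.74 in HCC 1, HCC 2 and unaffected liver 1, at 0.11 and 0.07 in HCC 3 and unaffected liver 2, and at -1.11, -0.75 and -0.77 in HCC 4, HCC 5 and unaffected liver 3. The adjusted p was 0.000217 by limma. Tekt2, a gene of sperm tail and cilium microtubules, ran the other way. It was at -0.73, -0.55 and -0.62 in mouse 3151, at 0.13 and -0.18 in mouse 3760, and at 0.66, 0.60 and 0.79 in mouse 4033, with an adjusted p of 0.00101 by limma. AK144910 was at -0.67, -0.95 and -0.51 in mouse 3151 and at 0.96 and 0.52 in mouse 3760, with values between -0.12 and 0.17 in mouse 4033.

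Of the growth inhibitors in the list, Trp73 and Kif1b were called between mice. The 1 probe of Trp73, at chr4:153476154-153476213, was at -0.74, -1.15 and -1.22 relative to the Chr4 median in HCC 1, HCC 2 and unaffected liver 1. It was at 0.08 in HCC 3, -0.47 in HCC 4, 0.08 in HCC 5, and -0.02 and 0.01 in unaffected livers 2 and 3. The low value was thus present in the unaffected liver of mouse 3151 as in its tumours, and the next lowest tissue, HCC 4, shared its scan day. Between mice the adjusted p was 0.0370, and between HCC and liver it was 0.999, both by limma.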

How the data were processed

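Per the file headers, the authors made the processed intensity values of each scanner file with Agilent Feature Extraction 9.1.3.1 (background subtraction, spatial detrending and dye normalisation within the array). The deposited log10 ratio values of the series matrix equalled the LogRatio of those files with the sign turned on swap arrays, and were used only for that check. The log2 ratio of tissue to reference was taken from these intensities without control spots and outlier spots. Spots of a probe were averaged, the autosomal median of each array was set to 0 without loess, and both dye orientations were averaged. The Chr4 level was the mean of its probes, and a gene value the mean of its probes.

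For autosomes, probes and genes, limma 3.58.1 (lmFit, eBayes, two-sided; R 4.3.3) compared 5 HCC with 3 unaffected livers, with Benjamini-Hochberg adjustment over all features tested and a threshold of 0.05. Segments came from optimal partitioning with at least 5 probes and a penalty factor of 3, scaled by the probe noise of each tissue. The steps were tested on simulated data. The other tools were numpy 2.4.6, pandas 2.3.3, numba 0.67.0 and matplotlib 3.10.9 under Python 3.11.15. The mouse pairs HCC with liver. Deviations from the group means over autosomal probes had r of 0.13 to 0.29 for HCC and liver of the same mouse. For HCC and liver of different mice r was -0.21 to 0.087. The 15 arrays were scanned on 4 slides over 2 days, which held both groups on each day. The number of arrays limits the precision, and signal over background on Chr4 was 3.31 to 7.64 in either dye.

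The members and lists were chosen with earlier results of these data known. Named genes were 17 growth, mitosis and liver genes, of which the array had a probe named for 16, the 5 genes with the smallest p in each direction, the 5 probes with the smallest p, and up to 10 focal regions. Genes called between mice, and the alternatives of that count, of the livers' lowest autosome, of probe GC and of scan day as a block, were added after the data were seen. Of 1228 gene names, 759 were current symbols and 177 older ones in the GRCm38.p6 gene table. Its coordinates were not used, since only 8.08% of 1424 matched probes lay inside their gene's bounds there. Alternatives were the background correction, spot filters, centring, blocks, thresholds and each tissue left out. Some named genes and 1 of the 6 loci are not reported here, and they still count in the totals.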

Additional observations from a re-analysis of the deposited data

Results flagged for a closer look

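Nr0b2 in HCC 2 stood apart from the other tumours. Relative to the Chr4 median its 1 probe was at -0.30 in HCC 2 and between -0.09 and -0.07 in the other 4 HCC, so its gap to the nearest tumour was 0.912 of the whole range, above the critical value of 0.71 for 5 values. It was 1 of 39 measures examined in this way, and chance alone gives about 1 in 20.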

How the results depend on the processing

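The HCC minus liver difference in Chr4 level was below 0 and not called under 12 alternatives (-0.19 to -0.13). The p ran from 0.0536, by the exact permutation test, to 0.746, by limma. The same held with each tissue left out (-0.22 to -0.14). With the mouse as a replicate block it was -0.17, and this block changed no call. Calls stayed at 0 for Chr4 probes (16 alternatives) and for Chr4 genes relative to the chromosome (14). The HCC minus liver difference in the last minus first value turned sign with all spots kept (0.00090) and with dim spots left out (0.0032). It also did so with the mouse as a replicate block (0.0028). With each tissue left out it ranged from -0.0106 to 0.0059. All these values lay within the spread between tissues. HCC past the threshold numbered 1 after normexp, 3 with forward arrays only, with dim spots left out and with centring on all probes, 4 at a threshold of 0.2 and 0 at 0.5, and 1 to 2 with each HCC left out (1 without HCC 4 or without HCC 5). Focal regions numbered 5 after normexp and with forward arrays only, and 15 with a penalty factor of 2 or with segments of at least 3 probes. Genes called between mice numbered 7 with forward arrays only, all 7 shared with the 13, and 9 to 13 with each tissue left out. The cause was not tested in any of these cases. Of 364 values of 26 named genes relative to Chr4, 350 moved by less than 1 SD. The design of 5 tumours against 3 livers of 3 mice, and signals 3.31 to 7.64 times background, limit what can be seen.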

Other observations

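A few single probes outside the focal regions also differed between mice. These probes were chosen after their values were seen, as the lowest and highest of a tissue, and the values are relative to its Chr4 median. The probe of Pigv, a mannosyltransferase gene of GPI anchor synthesis, at 133218498 lay close to Gpatch3. It was at 0.67, 0.81 and 0.91 in HCC 1, HCC 2 and unaffected liver 1, at 0.19 and -0.01 in HCC 3 and unaffected liver 2, and at -0.32, -0.99 and -0.93 in HCC 4, HCC 5 and unaffected liver 3. A probe of Cdk5rap2, a centrosome protein gene, at 70051305 was at 0.56 and 0.62 in mouse 3760 and between -1.28 and -0.49 in the 6 tissues of the other mice.

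Other probes did not follow the mouse. A probe of Ccdc28b, a coiled-coil protein gene, at 129300577 was at -1.33 in HCC 2, but at -0.40 in HCC 1 and 0.01 in unaffected liver 1 of the same mouse. A probe of Nfia, a transcription factor gene, at 97776535 was at 2.06 in HCC 1 and between -0.72 and 0.37 in the other 7 tissues.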
